A study of Rattus norvegicus with 29 samples.

Results

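The regions described here are the 1000 open chromatin regions (OCRs), of 98237 measured in the rat brain, with the largest excess of accessibility in the dentate gyrus (DG) over Ammon's horn (CA) in saline-treated animals. They were chosen by 1 rule from the raw OCR counts. Counts were scaled to counts per M of the library's total over OCRs (CPM), log2(CPM+0.5) was averaged over the 4 saline libraries of each area, and the 1000 OCRs with the largest DG mean minus CA mean were taken. They are called members below, and a member's rank is its place in that order. The saline difference between DG and CA is therefore what defines the members and is not a finding.

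Open chromatin was measured by ATAC-seq in adult male Sprague-Dawley rats given a binge of methamphetamine (METH, 10 mg/kg) or saline (1 mL/kg) as 4 intraperitoneal injections 2 h apart, to learn how 4 brain areas respond. Tissue was taken the day after the last injection from the nucleus accumbens (NAc), DG, CA and subventricular zone (SVZ). DG, CA and NAc each gave 4 saline and 4 METH libraries, and SVZ gave 3 saline and 2 METH libraries, which makes 29 libraries from 8 animals. All groups share the strain and sex, and no group carried a genetic change. NAc and SVZ were punched from slices frozen on dry ice, whereas DG and CA were dissected on a chilled surface and frozen afterwards. Each library is thus a mixture of cell types, and fewer cells of a type and lower accessibility per cell cannot be told apart in any value below. Replicate numbers 1 to 4 of DG, CA and NAc mark the same animal within a treatment, as the names of the deposited peaks show. In SVZ, the 3 saline and 2 METH libraries did not all follow that numbering.

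In ATAC-seq a transposase cuts DNA where nucleosomes and other proteins leave it exposed and adds sequencing adapters at the cut, so reads pile up at promoters, enhancers and insulators that are in use in the cell. The DG and CA are neighbouring fields of the hippocampus. The DG is packed with granule neurons, small excitatory cells that are still produced in adult rodents, and sends mossy fibres to the pyramidal neurons of CA. The NAc of the ventral striatum consists mainly of GABAergic medium spiny neurons and is a main target of dopamine, and the SVZ is the neurogenic layer along the lateral ventricle.

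Counts in OCRs totalled 7.55 to 19.4 M per library. A member held a median of 9 to 98.5 counts, depending on the library, and 0 to 17 of the 1000 members had a count of 0 in any 1 library. Each of the 29 count columns followed the peak calls of its own library more closely than those of any other library. Markers of the dissected cell types, sequence and gene placement of the members were not analysed here. Libraries of different areas come from the same animals, so the p-values below measure the spread between these animals' libraries.

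Among the saline libraries, which chose the members, 1 CA library was as open at them as DG. The saline DG minus CA difference ran from 0.74 to 1.41 log2 units over the members with a median of 0.83, against a median of 0.04 over all OCRs. The median CPM of the members was 4.33, 3.85, 3.15 and 5.39 in saline DG replicates 1 to 4, and in replicate 3 it lay below the 5.11 CPM of all OCRs. It was 1.56, 0.905 and 1.71 in saline CA replicates 1 to 3 and 5.07 in replicate 4. Saline CA replicate 4 thus stood apart from the other CA libraries at these OCRs. It was the highest CA library at 840 members, or 84%, against 33.8% of all OCRs. It exceeded the mean of the 4 DG libraries at 714 members. All 3 other CA libraries lay below all 4 DG libraries at 521 members. The rule's edge was not a natural break: rank 1000 (chr4:66201780-66202327) had a saline difference of 0.74346 and rank 1001 (chr2:173422342-173423064), the first OCR outside, also had 0.74346.

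**Figure D1:**
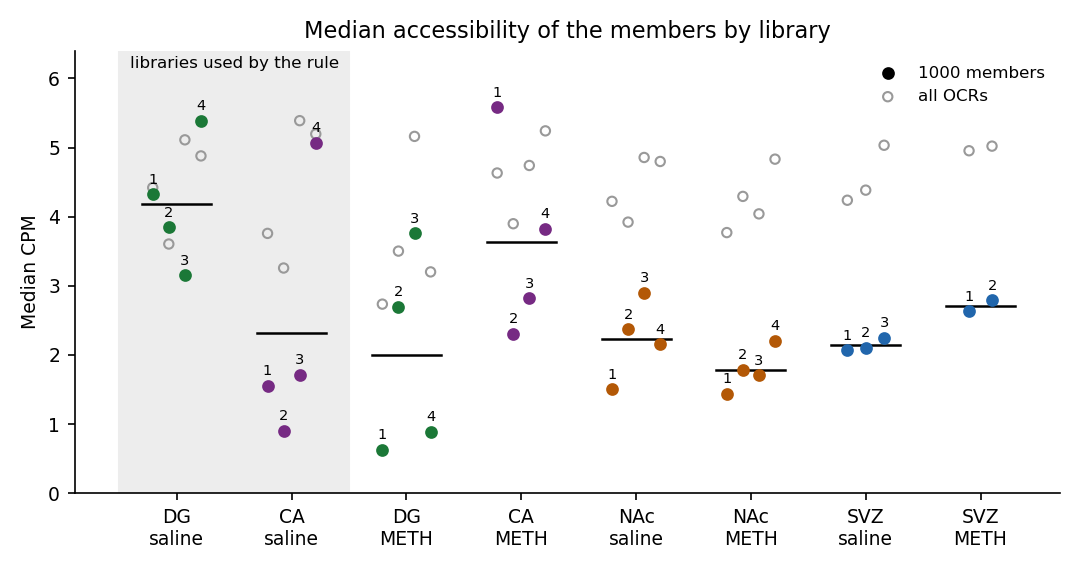
Median CPM (vertical axis) of the 1000 members in each of the 29 libraries, grouped by area and treatment, with the replicate number beside each filled point, a bar at each group's mean and the median over all 98237 OCRs as open grey circles. The shaded saline DG and CA groups chose the members. METH DG replicates 1 and 4 lie at 0.631 and 0.889 CPM, while METH CA replicate 1 reaches 5.58.

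In METH-treated animals the same OCRs were not more open in DG than in CA. The members' median CPM averaged 2.00 ± 1.5 in METH DG and 3.63 ± 1.44 in METH CA (SD, n = 4 libraries each), so the order of the means was the reverse of that in saline, with overlapping libraries. The METH DG libraries held 0.631, 2.70, 3.76 and 0.889 CPM in replicates 1 to 4. The METH CA libraries held 5.58, 2.31, 2.82 and 3.83 CPM. The DG group was split, with replicates 1 and 4 the lowest of all 29 libraries and replicates 2 and 3 within the range of CA.

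The mean DG minus mean CA difference in METH libraries had a median of -0.89 log2 units over the members, with quartiles of -1.15 and -0.54 and a range of -1.92 to 0.67. The median over all OCRs was -0.25. The difference was above 0 at 46 members, that is 4.60% of them, whereas 32.8% of all OCRs were above 0. Within the 2 library series that the peak names mark, each of which held 2 METH animals, the members' median was -1.09 in series 1 and -0.70 in series 2.

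**Figure D2:**
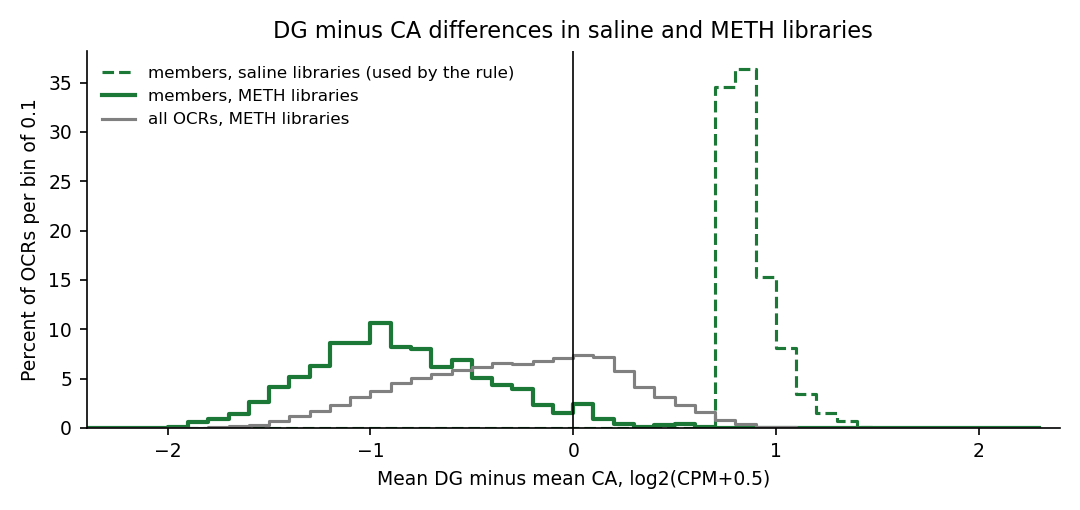
Distribution of the mean DG minus mean CA difference in log2(CPM+0.5) (horizontal axis, bins of 0.1) as a percentage of OCRs (vertical axis) for the members in saline libraries, the members in METH libraries and all OCRs in METH libraries. The saline curve starts at 0.74 because the rule put it there, and the METH curve of the same OCRs has its median at -0.89, below the -0.25 of all OCRs.

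No member passed the cut-offs for a difference between areas (log2 fold change above 1 with a false discovery rate, FDR, under 0.01) in the METH libraries by edgeR's quasi-likelihood test, in either direction, and neither did any other OCR (0% of 98237). The lowest FDR was 0.377. At an unadjusted p under 0.05, 4 members were higher in DG, against 6.30% of all OCRs, and 143 members, or 14.3%, were lower in DG, against 6.83%. Single libraries moved the 143: it became 45, 54 and 43 without METH DG replicate 1, DG replicate 4 or CA replicate 1, against 2.70%, 3.10% and 6.45% of all OCRs, and 315, 351 and 199 without DG replicate 2, DG replicate 3 or CA replicate 2, against 7.49%, 23.3% and 9.50%. The fitted log2 fold change of DG over CA had a median of -0.71 over the members and -0.10 over all OCRs, with a median standard error of 0.58 per member. DESeq2 also called 0 members. At an unadjusted p under 0.05 it gave 5 higher, against 14.6% of all OCRs, and 183 lower, or 18.3%, against 6.98%. With the animal as a block in the 8 DG and CA libraries, edgeR called 0 members and the median was -0.94. Sensitivity was low in simulated counts, where libraries varied independently and the changed OCRs were drawn from all 98237. Of those changed 2-fold between DG and CA, 3 of 100 were called, and of those changed 4-fold, 49 of 100. The real libraries varied together and the members were weaker than the typical OCR, so the sensitivity at the members was not measured. Without METH DG replicate 3, 115 members reached an FDR under 0.05, all lower in DG, although 0 passed the FDR of 0.01. That was 11.5% of the members, near the 9.00% of all OCRs that were lower in the same fit, and another 9.11% of all OCRs, but 0 members, were higher.

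The 4 METH animals did not share 1 direction at these OCRs. Within single METH animals, the median DG minus CA difference over the members was -2.44, 0.20, 0.36 and -1.72 log2 units for replicates 1 to 4. DG was the higher of the pair at 34, 654, 651 and 42 members, against 35.8%, 42.0%, 52.7% and 34.0% of all OCRs. So METH animals 1 and 4 had far lower accessibility in DG than in CA, and animals 2 and 3 had slightly higher accessibility in DG. Over all OCRs the same 4 animals gave medians of -0.35, -0.09, 0.03 and -0.50. The 1000 OCRs at the other end of the saline order had the largest CA excess. In METH animals 1 to 4 they gave 0.20, -0.10, -0.39 and 0.34, of opposite sign to the members in each. In the saline animals, which chose them, they gave -1.26, -0.72, -0.49 and -0.12. METH animals 1 and 4 thus had the reverse of the saline sign in both sets, and animals 2 and 3 kept it. What set animals 1 and 4 apart was not tested.

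The saline animals, which chose the members, gave within-animal medians of 1.23, 1.51, 0.65 and 0.08. Saline animal 4 thus had nearly equal accessibility in both areas, with DG higher at 572 members, against 46.4% of all OCRs. DG exceeded CA in all 4 METH animals at 4 members, where 3.48% of all OCRs did so, and in none at 97 members, or 9.70%, where 13% of all OCRs did so. At 440 and 452 members DG was the higher in 1 and in 2 of the 4 METH animals, against 33.8% and 32.5% of all OCRs.

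**Figure D3:**
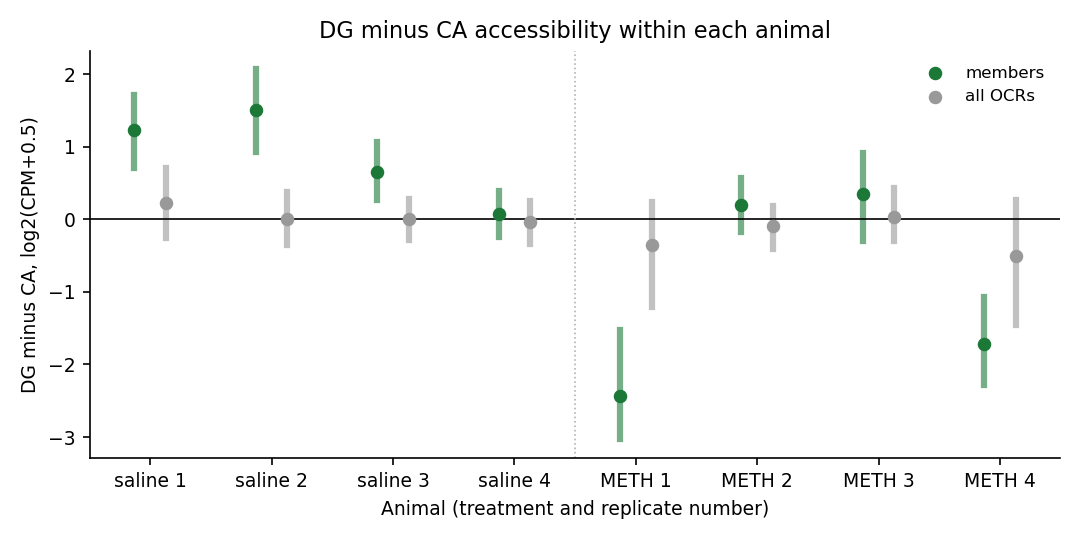
DG minus CA difference in log2(CPM+0.5) within each of the 8 animals (horizontal axis, treatment and replicate number), as the median (point) and quartiles (bar) over the members and over all OCRs. The members' median is above 0 in all 4 saline animals, at -2.44 and -1.72 in METH animals 1 and 4, and at 0.20 and 0.36 in METH animals 2 and 3.

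The members varied together between libraries. METH DG replicate 1 was the lowest DG library at 631 members, or 63.1%, against 37.6% of all OCRs. Replicate 4 was the lowest at 298, or 29.8%, near its 23.3% of all OCRs. Replicate 3 was the highest at 660, or 66%, against 56.7%. METH CA replicate 1 was the highest CA library at 633 members, or 63.3%, against 23.2% of all OCRs. In the 8 DG and CA METH libraries, the first principal component took 76.5% of the variance over the members and 67.5% over all OCRs. The members held 0.0849%, 0.317%, 0.471% and 0.110% of all OCR counts in METH DG replicates 1 to 4, and 0.669%, 0.262%, 0.338% and 0.477% in METH CA. A library's concentration of counts is given beside these levels. The 10% of OCRs with the highest mean signal took 62.4%, 59.0%, 47.1% and 56.9% of counts in METH DG and 50.2%, 55.1%, 50.04% and 46.0% in METH CA. The largest share went with the lowest member level in both areas, at METH DG replicate 1 and METH CA replicate 2. METH DG replicate 2 had a larger share than replicate 4, and also a higher member level. Over the 29 libraries, the members' mean level had a Pearson correlation of -0.61 with that share and of 0.06 with the total count. It was 0.68 with the median CPM of all OCRs and 0.51 with the number of peaks. These libraries share areas and animals and include the saline DG and CA libraries that chose the members, so the correlations are a description. The part of these library measures in the result was not tested.

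The member with the largest saline difference was a 943-bp OCR, chr2:89642028-89642970 (coordinates here are those of the rn6 rat build). It held 3.41, 2.05, 6.31 and 4.64 CPM in saline DG and 0.777, 0.724, 0.980 and 2.52 CPM in saline CA. In METH animals it held 0.631, 1.39, 1.61 and 1.16 CPM in DG and 3.26, 0.557, 2.34 and 1.83 CPM in CA. The METH groups overlapped, with CA spanning the DG values, and the log2 fold change of DG over CA was -0.58 ± 0.45 (SE; FDR 0.489). NAc and SVZ, at 2.59 to 4.58 CPM in METH NAc and 4.02 and 5.80 CPM in METH SVZ, were above METH DG in every library.

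A single member had all 4 METH DG libraries above all 4 METH CA libraries, where 0.552% of all OCRs did, and 39 members, or 3.90%, had all CA libraries above all DG libraries, where 2.41% of all OCRs did. The 39 became 144, 209 and 152 without METH DG replicate 2, DG replicate 3 or CA replicate 2, against 3.96%, 21.7% and 8.56% of all OCRs, and 39 to 50 without any other of the 8 libraries. The member with DG above CA, chr6:71432351-71432862 (rank 885), was nearly closed in the hippocampus. It held 5, 3, 4 and 5 counts in METH DG and 1, 2, 2 and 2 counts in METH CA, with no peak called in any DG or CA library. Its log2 fold change of DG over CA was 1.77 ± 0.76 (SE; unadjusted p 0.0322, FDR 0.377). In NAc it was open, at 3.5, 5.99, 0.628 and 5.34 CPM in METH animals, and the log2 fold change of NAc over CA was 5.07 ± 0.72 (FDR 0.000866, and called in all 8 fits that left out 1 library).

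Another 3 members were higher in METH DG at an unadjusted p under 0.05, and are named after their values were seen. The first, the 341-bp OCR chr1:181971814-181972154 (rank 491), carried a peak in all 29 libraries. It held 4.35, 4.96, 4.73 and 3.29 CPM in METH DG and 2.89, 2.55, 3.36 and 2.67 CPM in METH CA, so that DG exceeded CA in each animal and the groups overlapped only through DG replicate 4 and CA replicate 3. The log2 fold change was 0.78 ± 0.27 (SE; unadjusted p 0.00983, FDR 0.377). It was more open still in METH SVZ, at 11.5 and 9.71 CPM, which was 1.80 ± 0.31 log2 units above CA (FDR 0.00422, which was 0.0104 with the animal as a block), a call that held in 1 of 6 fits that left out 1 library.

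At chr8:126911723-126912688 (rank 843) the METH values were 5.33, 5.76, 10.2 and 6.76 CPM in DG and 5.85, 7.24, 3.25 and 2.93 CPM in CA, which overlapped, and the difference was 0.67 ± 0.31 (FDR 0.377). METH SVZ was again the highest, at 17.3 and 17.0 CPM. At chr17:47818849-47819349 (rank 133) DG held 1.68, 2.77, 16.1 and 1.16 CPM and CA 2.43, 0.955, 1.17 and 3.83 CPM. There the excess in DG came from replicate 3 alone. The OCRs with DG above CA in all 4 METH animals were rank 885, rank 491, chr2:23964230-23964999 (rank 486) and chr11:8147828-8148550 (rank 331), and of these only rank 491 held more than 2 CPM in a METH DG library.

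The 5 lowest fitted DG over CA log2 fold changes in METH animals ran from -2.04 to -1.83. At chr3:165985752-165986646 (rank 214, 895 bp) METH DG held 0.421, 3.65, 2.04 and 0.711 CPM and METH CA 13.8, 3.34, 5.06 and 7.39 CPM. CA replicate 1 was the highest METH library and DG replicate 2 lay within the CA range. The log2 fold change was -1.91 ± 0.58 (SE; unadjusted p 0.00429, FDR 0.377). The other 4 of the 5 lowest were chr3:50604682-50605273 at -2.04 ± 0.74, chr17:16869984-16870497 at -2.0 ± 0.63, chr14:12096467-12097163 at -1.96 ± 0.61 and chr4:48400553-48401108 at -1.83 ± 0.59, all with an FDR of 0.377. At chr14:12096467-12097163 every METH DG library, from 0.140 to 0.889 CPM, lay below every METH CA library, from 1.75 to 3.14 CPM.

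The 3 members with the highest mean CPM overlapped between METH DG and METH CA. The widest member, chr7:99271652-99273687 (rank 810, 2036 bp), held 14.8, 17.2, 32.8 and 18.3 CPM in METH DG and 21.6, 19.8, 14.5 and 20.1 CPM in METH CA. These values overlapped, with a log2 fold change of 0.26 ± 0.26 (FDR 0.594). In METH SVZ it reached 48.3 and 45.0 CPM. The next by mean CPM were chr1:234481809-234483333 (rank 853) and chr20:31728064-31729285 (rank 931), at -0.37 ± 0.27 and -0.46 ± 0.50 log2 units. Rank 931 varied widely, with 4.07, 10.4, 24.7 and 4.18 CPM in METH DG and 25.1, 8.19, 11.9 and 18.7 CPM in METH CA.

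**Figure D4:**
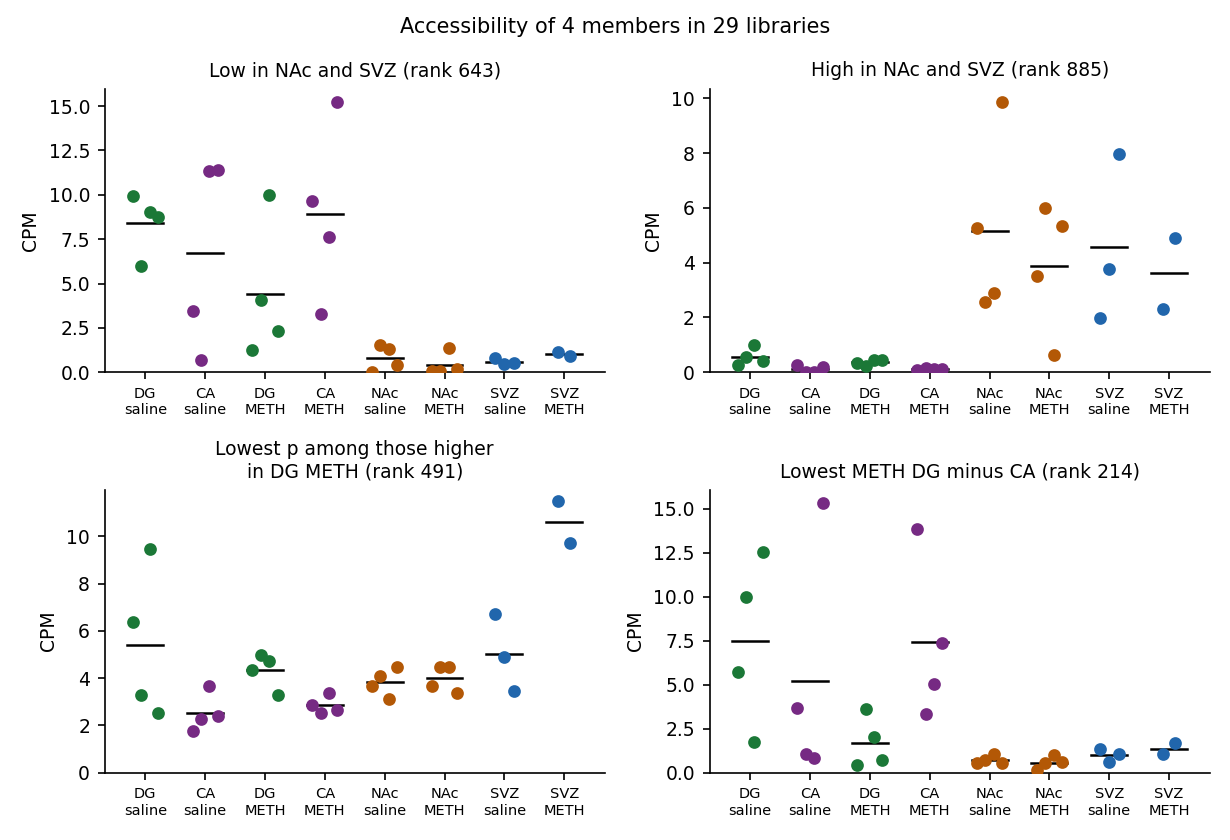
CPM (vertical axis, each panel from 0) of 4 members in the 29 libraries, grouped by area and treatment, with a bar at the group mean. The members are ranks 643, 885, 491 and 214. Rank 643 is at 1.35 CPM or lower in METH NAc, rank 885 is at 0.445 CPM or lower in METH DG and CA, rank 491 has METH DG values of 3.29 to 4.96 CPM against 2.55 to 3.36 in METH CA, and rank 214 has 0.421 to 3.65 CPM against 3.34 to 13.8.

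Some members carry a human gene name, taken from a list of the study. That list holds OCRs whose human counterpart contains a variant linked to neuron biology by genome-wide association studies. Whether the OCR acts on the named gene was not tested. Of 6 such members, 4 are described, chosen for the name after their values were seen. Placement relative to rat genes was not analysed here. The OCR with the name OSBPL3, a lipid-transfer protein of the oxysterol-binding family, is chr4:80137669-80138800 (rank 431). It held 1.26, 5.91, 6.45 and 2.4 CPM in METH DG and 13.1, 4.61, 8.31 and 8.33 CPM in METH CA, with DG replicates 1 and 4 again lowest, and the log2 fold change was -0.96 ± 0.43 (SE; FDR 0.377). The OCR named PLCB1, a phospholipase that acts below Gq-coupled receptors, is chr3:127901675-127902042 (rank 722). It was weak, at 0.0889 to 1.31 CPM in METH DG and 0.318 to 1.29 CPM in METH CA, and the difference was 0.13 ± 0.70.

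The OCR chr1:237912519-237913182 (rank 32) carries the names ALDH1A1, an enzyme of retinoic acid synthesis, and ANXA1, a phospholipid-binding annexin. It held 0.631, 3.57, 3.44 and 0.889 CPM in METH DG and 7.06, 1.83, 1.76 and 3.98 CPM in METH CA. The animals disagreed, with DG lower in animals 1 and 4 and higher in animals 2 and 3, and the log2 fold change was -0.61 ± 0.54 (FDR 0.540). The rank 853 OCR above carries the name TRPM6, a magnesium-permeable channel. Its METH DG values were 13.3, 12.2, 20.2 and 13.2 CPM and its METH CA values 18.1, 32.2, 17.1 and 15.8 CPM, with an FDR of 0.465.

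Peak calls split the libraries in the same way. They come from the same libraries as the counts, so they are not independent of them. A peak overlapped 2.8%, 53.7%, 49.9% and 3.4% of the members in METH DG replicates 1 to 4 and 77.5%, 35.2%, 62.2% and 75.6% in METH CA. Over all OCRs these shares were 49.1%, 61.1%, 63.3% and 50.7% in METH DG replicates 1 to 4, and 62.2% to 79.9% in METH CA. METH DG replicates 1 and 4 thus had peaks at few members and also the lowest METH DG shares over all OCRs. Their lists held 58378 and 63363 peaks, against 73126 and 83483 in replicates 2 and 3. The part of list length in the members' peak calls was not tested. More METH CA than METH DG libraries had a peak at 793 members, or 79.3%, against 43.6% of all OCRs, and more DG than CA libraries at 25 members, or 2.50%, against 6.57%. Of the 1000 members, 287 had no peak in any METH DG library, against 19729 of all 98237 OCRs. In METH CA 94 members had none, against 10256 of all OCRs, which is near the same share.

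In the saline libraries, shown as description, a peak overlapped 67.6%, 70.8%, 29.7% and 78.5% of the members in DG and 24.1%, 5.8%, 20% and 81.1% in CA. Saline CA replicate 4, the highest by counts, was also the highest by peaks. A member had a peak in a median of 10 of the 29 libraries, against 17 for all OCRs.

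**Figure D5:**
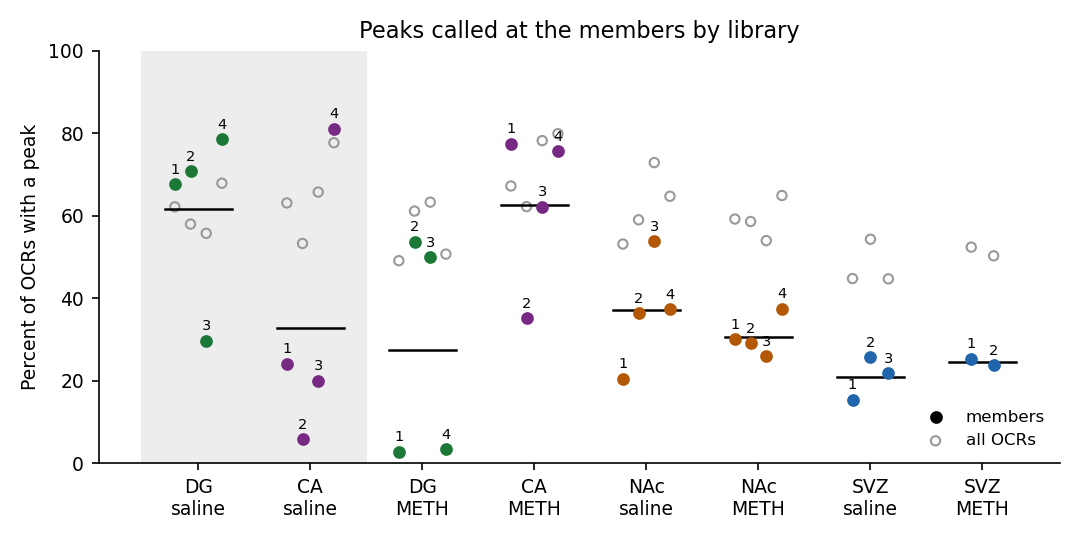
Percentage of OCRs overlapped by at least 1 bp of a peak (vertical axis) in each of the 29 libraries, for the members (filled) and for all OCRs (open grey), grouped by area and treatment, with the saline DG and CA groups shaded because they chose the members. METH DG replicates 1 and 4 have peaks at 2.8% and 3.4% of members, and the 13 NAc and SVZ libraries at 15.4% to 53.8%.

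Outside the hippocampus the members were below the level of all OCRs and within the range of the hippocampal libraries. Their median CPM averaged 2.23 ± 0.579 in saline NAc (SD, n = 4) and 1.78 ± 0.318 in METH NAc (n = 4). The libraries held 1.501, 2.37, 2.90 and 2.15 CPM in saline NAc and 1.44, 1.79, 1.71 and 2.20 CPM in METH NAc. In SVZ they held 2.07, 2.10 and 2.25 CPM in saline and 2.63 and 2.79 CPM in METH animals. In CPM, NAc and SVZ libraries of a group thus lay closer together than those of DG or CA. On the log2 scale saline NAc did not: the members' mean level had an SD of 0.273 there and 0.253 in saline DG. All NAc and SVZ libraries lay between the lowest and the highest hippocampal library. The median over all OCRs averaged 4.45 and 4.23 CPM in saline and METH NAc, and 4.55 and 4.99 CPM in saline and METH SVZ. No peak was called in any of the 13 NAc and SVZ libraries at 329 members, or 32.9%, against 12.8% of all OCRs, and a peak was called in all 13 at 44 members, or 4.40%, against 24.1%.

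By the mean of the METH libraries, CA was the most accessible of the 4 areas at 588 members, SVZ at 271, NAc at 139 and DG at 2. Over all OCRs these shares were 29.5%, 35.0%, 19.1% and 16.4%. DG was the least accessible at 468 members, NAc at 446, SVZ at 49 and CA at 37. Over all OCRs DG was the least accessible at 41.1%, NAc at 32.4%, SVZ at 13.6% and CA at 13%. DG as the lowest area was thus near its share over all OCRs, and CA as the highest was not.

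Between NAc and CA, most members were not called. In METH libraries 110 members, or 11.0%, were lower in NAc than in CA past the cut-offs, against 3.78% of all OCRs, and 36, or 3.6%, were higher, which is the share of all OCRs (3.59%). The other 854 were not called. All 4 METH CA libraries lay above all 4 METH NAc libraries at 358 members, or 35.8%, against 12.2% of all OCRs, and all NAc above all CA at 57 members, against 6.53%. With 1 library left out the 358 became 364 to 427, against 12.5% to 17.5% of all OCRs. The 57 became 60 to 114, against 7.58% to 13.1% of all OCRs. Of these, 114 was without NAc replicate 3, against 13.1%, and 90 without CA replicate 1, against 8.02%. The called counts depended on single libraries. The 146 members in both directions became 22, 39 and 15 without METH NAc replicate 1, 2 or 4. They became 62, 91, 50 and 60 without METH CA replicate 1, 2, 3 or 4. Over all 98237 OCRs the 3522 higher and 3711 lower became 1212 and 778 without METH NAc replicate 1, beside 10 and 12 members. Without METH NAc replicate 4 they became 685 and 608, beside 7 and 8 members, so the members were near their share in both fits. Without METH CA replicate 2 they became 1829 and 3286, beside 14 and 77 members. With the animal as a replicate block 65 members were called, 22 higher and 43 lower, against 1822 and 2204 of all OCRs. No member called in either direction was called in the opposite direction by any fit.

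The 110 NAc-low members had a median of 6.22 CPM in METH CA, 2.62 in METH DG, 0.727 in METH NAc and 1.64 in METH SVZ. Their log2 fold change of NAc over CA ran from -4.58 to -1.78 with a median of -2.97. They had no peak in any NAc or SVZ library in 85 cases. They were called for their METH CA and NAc values, so these levels are a description. The lowest NAc over CA value was at chr1:235015574-235016138 (rank 326), which had 0, 2, 2 and 2 counts in METH NAc and 70, 32, 36 and 87 counts in METH CA, a log2 fold change of -4.58 ± 0.97 (SE; FDR 0.00467). That call held in 2 of the 8 fits that left out 1 library, with FDR values up to 0.0220. At chr19:7309627-7310178 (rank 643), 270586 bp from the nearest other OCR, METH NAc held 0.0898, 0.0894, 1.35 and 0.170 CPM. METH CA held 9.64, 3.26, 7.62 and 15.2 CPM and METH DG 1.26, 4.09, 10.0 and 2.31 CPM. The NAc and CA values did not overlap and differed by -4.27 ± 0.75 (FDR 0.00176), a call that held in 6 of those 8 fits. In saline NAc it held 0 to 1.55 CPM.

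The 36 NAc-high members, called on the same NAc and CA libraries, had a median of 5.83 CPM in METH NAc, 5.24 in METH SVZ, 1.22 in METH CA and 1.05 in METH DG, and the log2 fold changes of NAc over CA ran from 1.33 to 5.07. Besides rank 885, chr3:122643525-122644110 (rank 289) stood out with 6.73, 5.90, 4.49 and 9.07 CPM in METH NAc against 0.304, 0.398, 0.692 and 0.996 CPM in METH CA, a log2 fold change of 3.48 ± 0.49 (FDR 0.000832, and called in all 8 fits that left out 1 library). The highest of the 36 in METH NAc was chr15:51518643-51519862 (rank 232), with 23.6, 19.5, 14.2 and 34.8 CPM in METH NAc and 9.19, 6.60, 10.6 and 8.65 CPM in METH CA, which did not overlap (1.46 ± 0.31, FDR 0.00525, which was 0.0167 with the animal as a block), a call that held in 1 of the 8 fits that left out 1 library.

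SVZ differed from CA at few members. Of the 1000, 15 were higher in METH SVZ than in METH CA past the cut-offs, or 1.5%, against 1.35% of all OCRs, and 0 were lower, against 0.0316%. At an unadjusted p under 0.05, 132 members, or 13.2%, were higher in SVZ, against 11.7% of all OCRs, and 152, or 15.2%, were lower, against 8.02%. The 15 calls became 2, 9, 0 and 0 without METH CA replicate 1, 2, 3 or 4, and 2 with the animal as a replicate block. Over all OCRs the 1329 higher became 354, 708, 0 and 179 without these CA libraries, and 306 with the block.

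METH DG itself was lower than METH NAc at 45 members, or 4.50%, against 3.62% of all OCRs, and higher at 11, or 1.10%, against 0.550%. Against METH SVZ, DG was lower at 7 members, or 0.70%, against 0.507%, and higher at 0, against 0.00305%. At an unadjusted p under 0.05, 25 members, or 2.50%, were higher in DG than in SVZ, against 7.91% of all OCRs, and 211, or 21.1%, were lower, against 15.1%. The 56 members that differed from NAc became 8, 17 and 1 without METH NAc replicate 1, 2 or 4. They became 33, 8, 120 and 35 without METH DG replicate 1, 2, 3 or 4. With the animal as a replicate block they were 13, all lower in DG. Calls over all 98237 OCRs moved too. The 540 higher and 3561 lower in DG became 4999 and 9226 without METH DG replicate 3, beside 10 and 110 members. Without METH NAc replicate 4 they became 4 and 113. The 7 members that differed from SVZ became 45 without METH DG replicate 3, and 0 without any other METH DG library or with the block. Over all OCRs the 3 higher and 498 lower became 871 and 2963 without METH DG replicate 3.

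METH against saline was tested where the rule had not used the saline libraries, in NAc and SVZ, at the cut-offs for treatment (fold change above 1.5 and FDR under 0.001). By edgeR 0 members passed in either area and direction, as did 0% of all OCRs. In NAc the lowest FDR was 1.00, and at an unadjusted p under 0.05, 29 members were higher in METH (2.90%, against 1.52% of all OCRs) and 88 lower (8.80%, against 3.36%). In SVZ, with 3 saline and 2 METH libraries and a lowest FDR of 0.959, 52 members were higher (5.20%, against 2.39%) and 3 lower (0.30%, against 2.76%). DESeq2 called 0 members in both areas. At an unadjusted p under 0.05 it gave 38 higher and 80 lower in NAc, against 2.14% and 2.85% of all OCRs. In SVZ it gave 42 higher and 9 lower, against 2.22% and 4.09%. The fitted log2 change over the members had a median of -0.18 in NAc and 0.23 in SVZ. In DG and CA this comparison would use the libraries that chose the members, so only the levels given above stand for it. In NAc and SVZ the study reported many regions changed by METH at the same cut-offs, after a normalization step (RUVr) that was not run here. The part of that step in the different outcome was not tested.

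The members were somewhat isolated. Their median width was 672 bp against 662 bp over all OCRs, but the nearest other OCR lay a median of 9168.5 bp away against 4779 bp. At 294 members, or 29.4%, no other OCR lay within 20 kb, against 13.2% of all OCRs and 14% of the 1000 OCRs with the largest saline CA excess. Their mean CPM over the 29 libraries had a median of 2.83, with a range of 1.14 to 23.0, against 4.32 over all OCRs. They fell on all chromosomes but Y, from 0.338% of the OCRs of chromosome 10 (20 members) and 0.421% of those of chromosome 12 (12 members) to 1.54% of those of chromosome 11 (45 members). The 1000 members formed 973 loci at a joining distance of 20 kb, of which 25 held more than 1 member, so nearly all were single elements. The 110 NAc-low members were more isolated still, with a median distance of 14664 bp to the nearest other OCR.

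The choice of saline library shaped the list. Saline DG replicate 4 was the highest DG library at 460 members, replicate 1 at 274, replicate 2 at 135 and replicate 3 at 131. Over all OCRs their shares were 24.5%, 23.2%, 20.5% and 31.8%. The median METH difference of DG over CA in these subsets of the members was -0.96, -0.76, -1.17 and -0.45 log2 units, below 0 in each. When the list was chosen again without 1 of the 8 saline libraries, 378 to 681 of the 1000 members were chosen again, the METH median was -1.03 to -0.41, and edgeR called 0 of each list in the METH libraries. The smallest overlap followed leaving out CA replicate 3 and the median nearest 0 followed leaving out CA replicate 2. With 500 or 2000 OCRs in place of 1000 the METH medians were -0.92 and -0.82.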

How the data were processed

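ATAC-seq libraries were grouped by their titles. The authors used the AIAP pipeline at its defaults, with peaks called per library, and united them as consensus OCRs on rn6 with mergeBed of bedtools. The deposited table holds unnormalized read counts. Which counter made it, and how the transposase offset was treated, are not given in the sources used here. Peak lists were deposited per library with a fold enrichment (a ratio) and −log10 values for p and for q. Only peak positions and, as an alternative, a −log10 q above 5 were used here, by an overlap of at least 1 bp (bedtools 2.31.1) or of 50% of the OCR.

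The members and the lists of OCRs named were chosen with earlier results of these data known. Counts were fitted with edgeR 4.0.16 in R 4.3.3 (upper-quartile scaling, trended dispersion, robust quasi-likelihood fit, Benjamini-Hochberg adjustment over all 98237 OCRs, all of which passed edgeR's filter on low counts). The 14 METH libraries were fitted together with 1 mean per area, so the saline libraries of the rule entered neither the scaling nor the dispersions. METH was compared with saline in the 13 NAc and SVZ libraries. DESeq2 1.42.0, TMM scaling and other alternatives were also run. The cut-offs are those of the study's methods. Its RUVr step was not run, for want of its number of factors in the methods. The fits were tested on simulated counts for 98237 OCRs, of which 0 of 98037 unchanged OCRs were called between DG and CA. The simulated libraries were independent, without the variation that real libraries shared, so this is not an error rate for the real libraries.

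Named OCRs are the 5 members with the largest rule difference, those higher in METH DG with values that did not overlap, the 5 with the lowest DG over CA log2 fold change, the 3 with the highest mean CPM and the 3 highest in METH NAc and in METH SVZ, and the 3 on each side of the rule's edge. Others are said where they appear to have been chosen after their values were seen, and so were the members with the largest and smallest NAc over CA change. Names of the peaks gave the animal of each library, and equal numbers mark the same animal in DG and CA, where deviations of the METH pairs from their group means correlated with r of -0.48 to 0.08 over 4 pairs. Pairs from different animals spanned r of -0.68 to 0.73, a range that holds these values. Blocked fits are given because animals were shared, not because of these correlations. An rn6 genome and annotation were not used here, so sequences, motifs and gene placement were not analysed here.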

Additional observations from a re-analysis of the deposited data

Results flagged for a closer look

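Among 236 groups of 4 libraries examined, 23 values lay far from the other 3 by Dixon's ratio of the gap to the group's range. Chance alone gives such a value in about 1 in 20 groups that are independent and unselected. That rate is no yardstick here. The saline DG and CA values chose the members, many of the OCRs were named for extreme values, and the same libraries recur across OCRs. Saline CA replicate 4 accounted for 8 of them, each above the other saline CA libraries: 2.52 CPM at chr2:89642028-89642970, 7.10 at chr6:105488033-105488549, 5.50 at chr8:98589130-98589905, 4.58 at chr1:237912519-237913182, 11.8 at chr15:47728116-47728978, 10.2 at chr15:51518643-51519862, 5.56 at chr2:2292829-2293551 and 6.17 at chr13:31107721-31108189. This library was the highest saline CA library at 840 members.

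Saline DG replicate 4 was above the other saline DG libraries at chr6:105488033-105488549, with 8.26 CPM, and at chr4:95188774-95189477, just outside the rule's edge, with 6.69 CPM. Saline DG replicate 1 held 6.35 CPM at chr4:48400553-48401108, where the others held 1.85 to 2.38. METH DG replicate 3 held 16.1 CPM at chr17:47818849-47819349 and 20.2 CPM at chr1:234481809-234483333, where METH CA replicate 2 held 32.2 CPM. METH CA replicate 1 held 12.5 CPM at chr15:47728116-47728978 and 17.4 CPM at chr2:173422342-173423064, the first OCR outside the rule.

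METH NAc replicate 3 was above the other METH NAc libraries at chr2:205068506-205069633 (73.7 CPM against 3.22 to 8.48), chr8:98589130-98589905 (3.5 CPM), chr19:7309627-7310178 (1.35 CPM) and chr13:31107721-31108189 (1.26 CPM). METH NAc replicate 4 held 6.78 CPM at chr4:80137669-80138800, METH NAc replicate 1 had 0 CPM at chr1:235015574-235016138, and saline NAc replicate 3 held 2.61 CPM at chr17:16869984-16870497.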

How the results depend on the processing

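In METH libraries, 0 members were called between DG and CA under every alternative run, 34 in all: TMM, the filter at a mean CPM of 1, DESeq2, loess offsets, other sets of libraries, the series as a covariate, the replicate block, each library or animal left out and each other choice of members. The members' median DG minus CA difference in log2(CPM+0.5) was -1.23 to -0.56 with 1 library left out, -0.53 at a pseudocount of 2, -0.76 with upper-quartile library sizes, and -2.44 within METH animal 1. Without both libraries of METH animal 1, 2, 3 or 4 the fitted median was -0.19, -1.14, -1.19 and -0.43. The number of members with all DG above all CA libraries, 1, was 3 with upper-quartile library sizes and 1 to 3 with 1 library left out, while the 39 with all CA above all DG became 39 to 209. The difference between the shares of members with a peak in METH DG and METH CA was -35.2 percentage points, and -44.3 to -27.0 with 1 library left out, and the difference of the members' mean levels was -0.84, and -1.16 to -0.56.

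Calls between other areas were fewer or more with the processing. With TMM, 35 members differed between DG and NAc, 0 between DG and SVZ and 7 between SVZ and CA. Over all 98237 OCRs TMM called 407 higher and 2618 lower in DG than NAc, and 1 and 13 against SVZ. For SVZ over CA it called 546 higher and 15 lower. With DESeq2 the members called were 167, 45, 318 between NAc and CA, and 65 between SVZ and CA, of which 28 were lower in SVZ. Over all OCRs DESeq2 called 3374 higher and 8105 lower in DG than NAc, and 1432 and 3079 against SVZ. It called 6834 higher and 8042 lower in NAc than CA, and 3617 and 1309 in SVZ. With the replicate block by animal the members called were 13, 0, 65 and 2. With 1 library left out they ran from 1 to 120 between DG and NAc, 0 to 45 between DG and SVZ, 15 to 122 between NAc and CA and 0 to 9 between SVZ and CA. The causes were not tested. The block left 1 named member with another sign of DG over CA, chr2:205068506-205069633, at -0.41 in place of 0.05. METH against saline in NAc and SVZ called 0 members under each alternative. The block by animal, the animals left out, and the left-out libraries for peaks, mean levels, counts at an unadjusted p and non-overlap of NAc and CA were chosen after seeing the data. A median of 9 to 98.5 counts per member limits the precision, and 2 METH libraries limit SVZ.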

Other observations

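The other members with a large saline difference, ranks 2 to 5, were described by their METH values alone. At chr2:223570802-223571423 (rank 2) METH DG held 0.701, 1.39, 2.90 and 0.889 CPM and METH CA 6.38, 2.07, 2.72 and 3.56 CPM, while METH NAc reached 8.80 and METH SVZ 5.80 CPM. At chr3:48480064-48480608 (rank 3) METH NAc held 0 to 0.805 CPM against 1.59 to 3.95 CPM in METH CA, and at chr6:105488033-105488549 (rank 4) METH NAc held 0.339 to 1.80 CPM against 1.75 to 8.88 CPM. At chr8:98589130-98589905 (rank 5), 138683 bp from the nearest other OCR, METH DG held 0.280, 3.57, 1.94 and 0.533 CPM, with animals 1 and 4 lowest.

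The most accessible members in METH SVZ included chr2:205068506-205069633 (rank 407), with 40.6 and 18.0 CPM there. It varied widely in every area, from 1.47 to 19.6 CPM in METH DG and from 4.77 to 12.3 CPM in METH CA.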
